A study of Arabidopsis thaliana with 8 samples.

Results

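The plastid genome of Arabidopsis thaliana encodes part of the machinery of the photosynthetic light reactions and the large subunit of Rubisco, and these genes are described here across wild type and dor mutant leaves with and without drought. The members are the probe sets that stand for exactly 1 gene of the plastid genome whose symbol begins, in lower case, with psa, psb, pet, rbc or atp. The rule uses gene names and no measured value. It finds 33 genes, each with 1 probe set, among the 22810 probe sets of the array, and these are all 33 plastid genes with such a symbol in the RefSeq gene table. Photosystem II has 15 of them, the ATP synthase 6, the cytochrome b6f complex 6, photosystem I 5 and Rubisco 1.

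RNA from rosette leaves was measured on 8 Affymetrix ATH1 arrays, 2 labelled biological replicates in each of 4 groups. The wild type was the Columbia accession and the mutant was dor, 1 T-DNA insertion line in Columbia (Salk-050074), whose arrays are also described as from the S29 mutant. Control plants had been watered for 34 days; drought plants had been watered for 24 days and then received no water for 10 days, so that both were harvested at the same age. All plants grew in soil with 16 h of light and 8 h of darkness at 22 °C. The labels do not say how many plants made a sample, and a second allele was not analysed here.

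Photosystem II splits water and passes electrons through plastoquinone to the cytochrome b6f complex, photosystem I lifts them to ferredoxin, and the ATP synthase uses the proton gradient that builds up across the thylakoid membrane. Each complex joins subunits made in the plastid with subunits made from nuclear genes. Most plastid photosynthesis genes lie in operons, are read by a bacterial-type RNA polymerase of the plastid, and are cut, spliced and trimmed afterwards, so that the level of a transcript depends strongly on its processing and stability. Plastid messages carry no long stable poly(A) tail, whereas the standard labelling of these arrays starts from an oligo(dT) primer. How far this enters the signals below was not tested. Stretches of plastid DNA also lie in the nuclear and mitochondrial genomes, and transcripts of the copies cannot be told apart from those of the plastid on these probe sets. In whole leaves, fewer photosynthetic cells and less RNA per cell cannot be told apart either.

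The arrays differed by replicate number before any gene was compared. The median signal over all probe sets was between 97.4 and 120 on the 4 replicate 1 arrays and between 163 and 171 on the 4 replicate 2 arrays. The 12 probe sets of the bacterial spike-in transcripts had geometric means between 337 and 447 on replicate 1 and between 16.3 and 104 on replicate 2. The ratio of the actin 5' to the actin 3' control was 0.229 and 0.245 on replicate 1 of the wild type and dor control groups, against 0.366 to 0.575 on the other arrays. Of the tissue markers, the 4 of leaf mesophyll with a named probe set were read on every array and were lowest on dor drought replicate 1. RCA, which encodes Rubisco activase, had 9383 there and 21538 to 36420.0 on the other 7 arrays. The Calvin cycle genes PRK and SBPASE had 1728 and 687 there, against 9087 to 26539.5 and 4538 to 18823, and the antenna gene LHCB4.1 had 7403 against 15540.2 to 39419.8. The guard cell markers CHX20 and FMA had signals of 418 to 552 and 153 to 476.5, and the guard cell marker AT1G22690 had 1571 to 7791 on the control arrays and 11.6 to 198 on the drought arrays. The pollen gene AGL66 was under the 40th percentile on 8 of 8 arrays and the root gene PYK10 on 5 of 8. DOR (AT2G31470), the F-box gene for which the mutant is named, was under the 40th percentile of its array on 8 of 8 arrays, with signals of 2.3 to 21.4, and checks nothing about the mutant here.

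All 33 members were bright enough to be tested, that is, at least 2 of the 8 signals reached the 40th percentile of the array concerned. Below that percentile lay petG and atpI on replicate 1 of the dor drought group, and no member on any other array. The 33 members together made up between 1.31% and 2.34% of the summed signal of an array. The lowest share was that of dor drought replicate 1 and the highest that of dor control replicate 2. The median member signal was 2498 on dor drought replicate 1 and between 4562 and 8938 on the other 7 arrays. Of the 33 members, 19 had their lowest signal of the 8 arrays on dor drought replicate 1, which was the lowest array for 20.7% of all 15523 tested probe sets. The highest signal of 15 members was on dor control replicate 2. The share of all tested probe sets highest there was not counted, so this number is a description only.

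**Figure D1:**
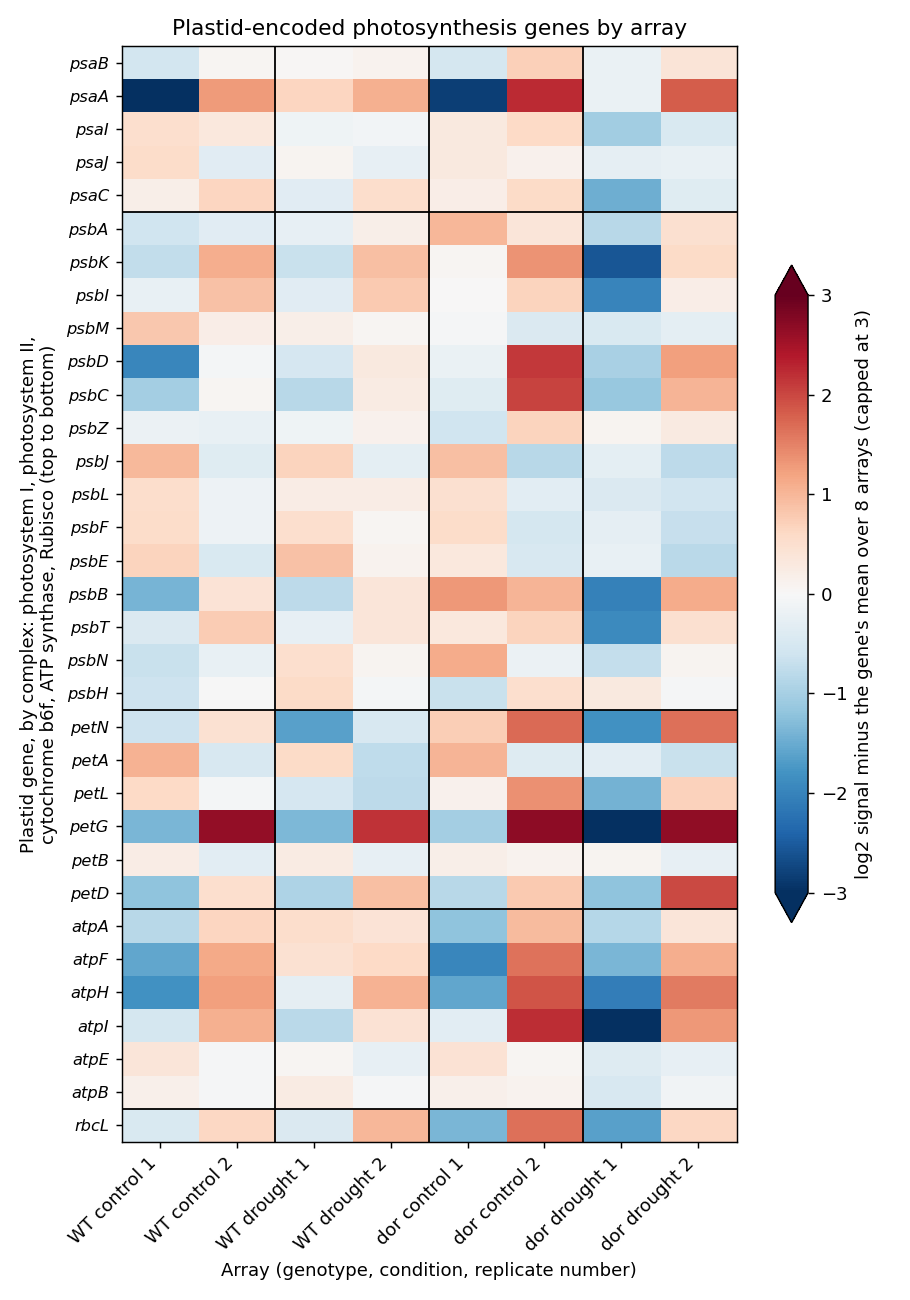
Colour shows the log2 signal of each of the 33 plastid genes (rows, grouped by complex) on each of the 8 arrays (columns), minus that gene's mean over the 8 arrays, capped at 3. Columns of the same replicate number resemble each other for many genes, and dor drought replicate 1 is the lowest array for 19 of the 33.

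No member passed the test in any comparison. The test was limma's moderated test on log2 signals, two-sided, with p-values adjusted by Benjamini-Hochberg over all 15523 probe sets tested and a threshold of 0.05. Of all tested probe sets the same test called 0.00644% between droughted and watered wild type, 0.567% between droughted and watered dor and 5.81% for drought in the 2 genotypes together. It called 0.0% for the genotype difference under control watering, 0.0% for the genotype difference under drought, 0.0% for the genotype difference over both conditions and 0.0% for the difference of the drought responses. For the difference between replicate numbers it called 0.00644%. At an unadjusted p under 0.05, the members counted 0 for drought in wild type, 1 for drought in dor, 1 for drought over both genotypes, 0 in each genotype comparison, 0 for the difference of the responses and 19 for the replicate numbers. The shares of all tested probe sets at that level were 9.55%, 15.7%, 27.5%, then 0.457% (control), 3.17% (drought) and 1.98% (both conditions) for genotype, 1.19% for the difference of the responses and 21.3% for the replicate numbers. With 2 arrays a group, a difference that misses the threshold is not shown to be absent, and the standard errors (SE) below give the resolution.

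The reaction centre of photosystem II is formed by the D1 protein, made from psbA, and the D2 protein, made from psbD. D1 is damaged by light and replaced continuously, which makes psbA one of the most active plastid genes in mature leaves. The psbA signals were 9670.1 and 11463 in watered wild type, 12337 and 16418 in droughted wild type, 29263 and 18814 in watered dor, and 8212 and 20212 in droughted dor. The wild type drought arrays were above the wild type controls and the dor controls above the wild type controls, while the dor drought arrays had the lowest and the second highest of the 8 signals. The drought difference of psbA was 0.43 ± 0.56 in wild type and -0.86 ± 0.56 in dor (log2 ± SE), and the dor minus wild type difference under control watering was 1.16 ± 0.56, with an adjusted p of 1.00 in limma.

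Cytochrome b559 of photosystem II has an alpha and a beta subunit, made from psbE and psbF. The psbF signals were 24018 and 14789 in watered wild type, 23251 and 17122 in droughted wild type, 23890.3 and 11351 in watered dor, and 13554 and 10223 in droughted dor. The psbE signals were 17088 and 7803 in watered wild type, 19693 and 11469 in droughted wild type, 13386 and 7638 in watered dor, and 9174 and 6157 in droughted dor. Under drought both genes were lower on the 2 dor arrays than on the 2 wild type arrays, by -0.76 ± 0.54 for psbF and -1.0 ± 0.60 for psbE on the log2 scale. Replicate 1 was above replicate 2 in each of the 4 groups for both.

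The small subunit gene psbM, whose protein lies where the monomers of the photosystem II dimer meet, had signals of 51401 and 33469 in watered wild type, 32850.5 and 30252 in droughted wild type, 28569 and 21594 in watered dor, and 21273 and 23879 in droughted dor. It was the only member of the 33 with all 4 wild type arrays above all 4 dor arrays, an order that held in this direction for 0.361% of all tested probe sets. The genotype difference of psbM over both conditions was -0.61 ± 0.30 (log2 ± SE, adjusted p = 1.00 in limma), and it ran from -0.71 to -0.46 over 19 alternative settings. As 1 gene among 33, singled out after its values were seen, psbM is described and not called.

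The other 11 photosystem II genes spanned 2.12-fold (psbL) to 16.8-fold (psbD) between their lowest and highest array. For psbD the signals were 292 and 1085 in watered wild type, 798 and 1384 in droughted wild type, 979 and 4909.8 in watered dor, and 576 and 2646 in droughted dor. For psbC, which encodes the inner antenna protein CP43, they were 1602 and 3370.2 in watered wild type, 1806 and 3822 in droughted wild type, 2502 and 13090.4 in watered dor, and 1463 and 6572 in droughted dor. Both genes, which were chosen for mention after their values were seen, had their highest signal on dor control replicate 2 and lower signals on replicate 1 than on replicate 2 in every group. Their genotype differences under control watering were 1.96 ± 1.05 for psbD and 1.3 ± 0.99 for psbC, with an adjusted p of 1.00 each in limma.

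Photosystem I is built on the pair of large proteins made from psaA and psaB, which carry its reaction centre chlorophylls. The psaB signals were 14492 and 21927 in watered wild type, 21554 and 22776 in droughted wild type, 14644 and 34546 in watered dor, and 18442 and 27566 in droughted dor. The psaA signals were 234 and 9221 in watered wild type, 5919 and 8042 in droughted wild type, 542 and 18029.6 in watered dor, and 3319.6 and 13495 in droughted dor. The 2 control arrays of replicate 1 stood apart for psaA, at 234 and 542 against 3319.6 to 18029.6 on the other 6 arrays. They are also the 2 arrays with the lowest actin 5' to 3' ratio, and the part of this in the psaA values was not tested. The drought difference of psaA in wild type, 2.23 ± 1.92 (log2 ± SE), was the largest positive value among the members, and it was 4.66 within replicate 1 and -0.20 within replicate 2. In dor it was 1.10 ± 1.92, with 2.62 within replicate 1 and -0.42 within replicate 2.

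The small photosystem I subunit gene psaI had signals of 8409.9 and 7370.0 in watered wild type, 5473 and 5656 in droughted wild type, 7268 and 8938 in watered dor, and 2877 and 4337 in droughted dor. All 4 drought arrays lay below all 4 control arrays, which was the case for 9.41% of all tested probe sets and for no other member. The difference was -0.50 ± 0.47 in wild type, -1.19 ± 0.47 in dor and -0.85 ± 0.32 over both genotypes (log2 ± SE). The adjusted p in limma was 0.729, 0.280 and 0.133, and for the last of these it ran from 0.0903 to 0.461 over 19 alternatives. Of the members psaI therefore came nearest to a call for drought, without reaching it.

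A similar order was seen for psaC, which encodes the iron-sulphur protein that passes electrons from photosystem I to ferredoxin. Its signals were 2789 and 3856 in watered wild type, 1923 and 3547 in droughted wild type, 2834.5 and 3652 in watered dor, and 894.5 and 1921 in droughted dor. Both dor drought arrays were below both dor controls, and the wild type groups overlapped. The drought difference was -1.30 ± 0.60 in dor (adjusted p = 0.348 in limma) and -0.33 ± 0.60 in wild type. The small subunit gene psaJ had signals of 21467 and 11724 in watered wild type, 15654 and 12439.7 in droughted wild type, 18154 and 15996 in watered dor, and 12234.5 and 12674 in droughted dor, with a drought difference of -0.45 ± 0.48 in dor.

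In the cytochrome b6f complex, petB encodes cytochrome b6 and petA encodes cytochrome f. The petB signals were 30594 and 21256 in watered wild type, 31177 and 22079.5 in droughted wild type, 29473 and 28132 in watered dor, and 27841.5 and 22079 in droughted dor. Its highest signal was 1.47 times its lowest, the narrowest span of the 33 members. The petA signals were 18740.4 and 6528 in watered wild type, 13595 and 5376 in droughted wild type, 18700.1 and 7034 in watered dor, and 7395 and 5722 in droughted dor. All 4 replicate 1 arrays were above all 4 replicate 2 arrays for petA, and the excess of replicate 1 over replicate 2 was smallest in droughted dor.

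The small b6f subunit genes varied more. The petL signals were 4562 and 2888 in watered wild type, 2131 and 1739.6 in droughted wild type, 3275 and 7811 in watered dor, and 1129 and 4870.1 in droughted dor. Its drought difference was -0.91 ± 0.78 in wild type, where the groups did not overlap, and -1.11 ± 0.78 in dor, where they did. The petN signals were 221 and 461 in watered wild type, 109.8 and 244 in droughted wild type, 565 and 1089.7 in watered dor, and 95.7 and 1056 in droughted dor. Both dor controls were above both wild type controls for petN, by 1.3 ± 1.09. The petG signals were 74.0 and 1194 in watered wild type, 75.9 and 860.5 in droughted wild type, 95 and 1248 in watered dor, and 2.3 and 1216.5 in droughted dor. Every replicate 1 array was below every replicate 2 array for petG. Its drought difference in dor, -2.70 ± 2.78, became -0.33 when dim signals were raised to the 40th percentile of the array.

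The ATP synthase has its catalytic beta subunit from atpB, its epsilon subunit from atpE and its alpha subunit from atpA. The atpB signals were 37859 and 33114 in watered wild type, 39974.5 and 33247 in droughted wild type, 38057 and 36777 in watered dor, and 24271 and 31340.2 in droughted dor. The atpE signals were 39947 and 30166 in watered wild type, 32549.5 and 26103 in droughted wild type, 41894 and 32482 in watered dor, and 23854.5 and 26211 in droughted dor. For both genes the 2 dor drought arrays were below the 2 dor controls, by -0.44 ± 0.41 for atpB and -0.56 ± 0.43 for atpE, while the wild type groups overlapped (0.04 ± 0.41 and -0.25 ± 0.43).

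The alpha subunit gene atpA had signals of 7871 and 21881 in watered wild type, 20270.3 and 18426 in droughted wild type, 6052 and 26943.5 in watered dor, and 7691 and 17918 in droughted dor. The membrane subunit gene atpF had signals of 1443 and 9457 in watered wild type, 5840.5 and 6438 in droughted wild type, 1105 and 13176 in watered dor, and 1645.5 and 9133.5 in droughted dor. The 2 wild type drought arrays stood close together for both genes, whereas in the other 3 groups the replicate 2 array was at least 2.33 times the replicate 1 array. Of the ATP synthase ring gene atpH the signals were 1180.3 and 9830.3 in watered wild type, 3477 and 8641 in droughted wild type, 1431 and 15553 in watered dor, and 997 and 12289.8 in droughted dor.

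Rubisco fixes carbon dioxide and has its large, catalytic subunit from rbcL. The rbcL signals were 1510.2 and 3193 in watered wild type, 1544 and 4119 in droughted wild type, 797 and 6563 in watered dor, and 670.1 and 3167 in droughted dor. Replicate 1 was below replicate 2 in every group, and neither the drought nor the genotype groups were apart. The drought difference was 0.20 ± 1.12 in wild type and -0.65 ± 1.12 in dor (log2 ± SE).

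**Figure D2:**
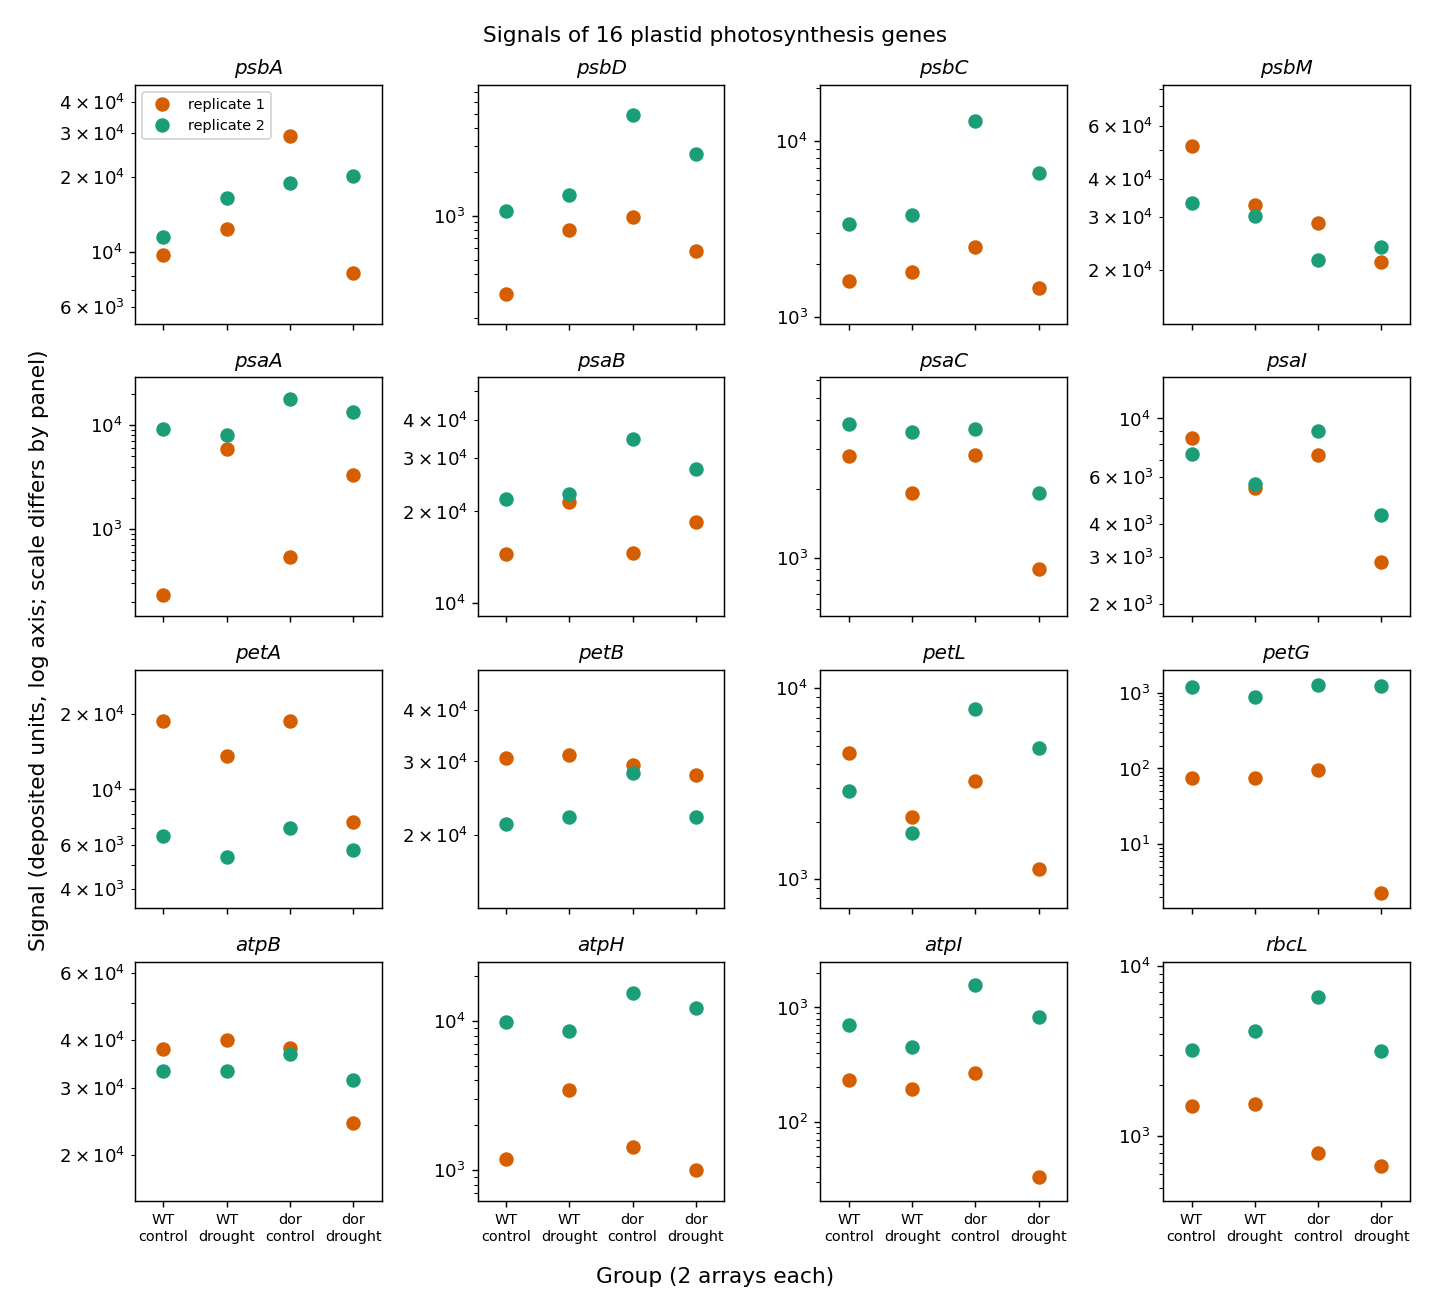
Deposited signal (log axis, scale different in each panel) of 16 plastid genes in the 4 groups, with 1 point per array, orange for replicate 1 and green for replicate 2. The psaI points of both drought groups lie below those of the control groups, the psbM points of dor below those of wild type, and the petG, atpH and rbcL points are separated by replicate number.

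For drought in wild type, the members differed in both directions. The median difference over the 33 members was 0.04 on the log2 scale, beside 0.16 over all tested probe sets, with a range of -0.96 (petN) to 2.23 (psaA). Above 0 were 19 members, beside 8688 of all 15523 tested probe sets. The member median was -0.18 without wild type control replicate 1, 0.43 without wild type control replicate 2, 0.25 without wild type drought replicate 1 and -0.12 after each array was centred on its median. The medians of all tested probe sets in the same runs were -0.13, 0.39, 0.30 and -0.002. The groups did not overlap with drought higher for 3 members (psbA, psbZ and psbN) and with drought lower for 3 (psbM, psaI and petL). Of all tested probe sets 22.9% did so with drought higher and 18.8% with drought lower, so neither count of members exceeds the background. Within both replicate numbers 11 members were higher under drought, beside 34.7% of all, and 9 lower, beside 27.7%. Of the complexes, the ATP synthase had a median of 0.30, photosystem II 0.18, photosystem I -0.19 and cytochrome b6f -0.29.

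For drought in dor, most members had lower signals. The median was -0.59, beside 0.17 over all tested probe sets, and 27 of the 33 were below 0, beside 6862 of all 15523. The groups did not overlap for 7 members, all lower under drought: psaI, psaC, psaJ, psbL, petB, atpB and atpE. That is 21.2% of the members beside 22.9% of all tested probe sets, while 0 members were apart with drought higher beside 26.5% of all. Within each replicate number 21 members were lower under drought in both, beside 29.9% of all tested probe sets, and 0 were higher in both, beside 36.7%. The complex medians were -0.45 for photosystem I, -0.78 for photosystem II, -0.96 for cytochrome b6f and -0.44 for the ATP synthase.

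The size of these differences in dor depended on single arrays. The member median was -0.81 within replicate 1 and -0.34 within replicate 2. It was -0.05 without dor drought replicate 1, -1.18 without dor drought replicate 2 and -1.20 without dor control replicate 1. In the same runs the medians of all tested probe sets were 0.30, 0.06 and -0.11, in that order. Dor drought replicate 1 also had the lowest signals of the 4 leaf mesophyll markers, given above, and of most nuclear photosynthesis genes, given below. LHCB4.1 belongs to both of these lists. The part of these low signals in the members' values was not tested. For psaI the difference in dor was between -1.49 and -0.89, and for psaC between -1.85 and -0.74, over all 19 alternatives.

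The drought responses of the genotypes were compared as a difference of differences, dor minus wild type. The median over the members was -0.69, beside -0.01 over all tested probe sets, and 31 of 33 were below 0, beside 7836 of all 15523. Within both replicate numbers 24 members were below 0, beside 26.5% of all, and 1 member, psbM, was above 0, beside 24.6%. The gene lists described below went the same way. Below 0 were 34 of the 36 other plastid genes, 16 of 17 mitochondrial probe sets and 10 of 10 nuclear photosynthesis genes. Their medians were -0.89, -0.57 and -1.03. The value of petG, -2.48, rests on the dim signal of 2.3 and became -0.11 with dim signals raised. Among members bright on every array the lowest was psbB at -1.885, and psbA had -1.30 ± 0.79 (log2 ± SE). The smallest adjusted p in limma was 1.00, so no member's response is shown to differ between the genotypes. Without dor drought replicate 1 the member median was -0.12, beside 0.10 over all tested probe sets. The 2 responses and their difference share their arrays and are not independent of each other.

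**Figure D3:**
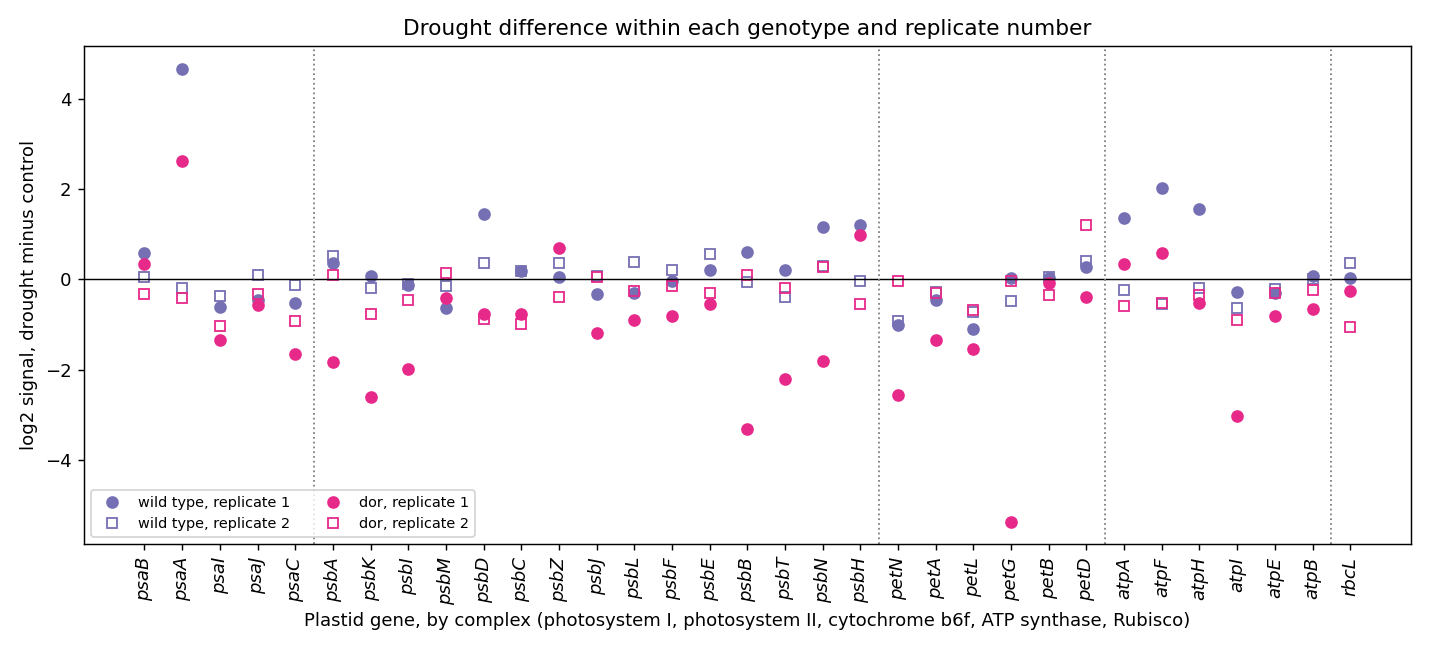
Drought minus control difference of the log2 signal for each of the 33 plastid genes, ordered by complex, within wild type (violet) and dor (pink), filled for replicate 1 and open for replicate 2. The filled pink points reach the lowest values, down to -5.37 for petG, and the open points of both genotypes stay within about 1.21 of 0.

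Over both genotypes the median drought difference of the members was -0.27, beside 0.17 over all tested probe sets. Below 0 were 24 of 33, beside 6797 of all 15523. The member median was -0.06 without dor drought replicate 1 and -0.69 without both control arrays of replicate 1. The medians of all tested probe sets were 0.22 and -0.11 in these runs. In all 4 pairs of the same genotype and replicate number 8 members were lower under drought, beside 18.2% of all tested probe sets, and 0 were higher, beside 23.1%. The 8 were psaI and psaC of photosystem I, petN, petA and petL of cytochrome b6f, psbI of photosystem II, and atpI and atpE. The difference was -1.01 ± 0.51 for petL, -0.81 ± 0.42 for psaC and -1.13 ± 0.72 for petN, with adjusted p-values in limma of 0.232, 0.236 and 0.330.

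Between genotypes under control watering, the members were on balance slightly higher in dor. The median was 0.21, beside -0.01 over all tested probe sets, with 26 of 33 above 0, beside 7546 of all 15523. The mitochondrial list described below had a median of 0.52, with 16 of 17 above 0. The other plastid genes had 0.11, with 20 of 36, and the nuclear photosynthesis genes 0.08, with 8 of 10. For the members, the overlap of the groups is given next. The groups did not overlap for psbA, petN, psbB and psbN with dor higher, beside 7.57% of all tested probe sets, and for psbM with dor lower, beside 7.47%. The gene psbB, which encodes the inner antenna protein CP47, had signals of 816 and 2878 in watered wild type against 5303 and 4371 in watered dor, a difference of 1.65 ± 1.05. Leaving out arrays moved the member median from -0.12, without dor control replicate 2, to 0.84, without dor control replicate 1. The medians of all tested probe sets were -0.18 and 0.23 in these runs.

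Under drought the sign was the opposite. The median was -0.48, beside 0.00 over all tested probe sets, with 26 of 33 below 0, beside 7770 of all 15523. Both dor arrays were below both wild type arrays for 8 members (psaI, psaC, psbM, psbL, psbF, psbE, atpA and atpB), beside 15.1% of all. No member was apart with dor higher, beside 15.1%. The other plastid genes described below had a median of -0.84, with 33 of 36 below 0. The nuclear photosynthesis genes had -0.99, with 10 of 10 below 0, and the mitochondrial list -0.12, with 11 of 17. Within replicate 1 the member median was -0.88 and within replicate 2 it was 0.03. The labels name an RNA extraction reagent for dor only in replicate 1 and for wild type only in replicate 2. Within a replicate number, genotype cannot be told apart from this wording. Without dor drought replicate 1 the member median was 0.26, beside 0.12 over all tested probe sets. Over both conditions the median genotype difference of the members was -0.09, with 13 of 33 above 0, beside 7516 of all 15523 tested probe sets. No member had all 4 dor arrays above all 4 wild type arrays, beside 0.29% of all tested probe sets.

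Many members were separated by the replicate number, in a comparison that was added after the data were seen. With the 4 group means in the model and 3 residual degrees of freedom, replicate 2 minus replicate 1 had a median of 0.62 over the members, beside 0.36 over all tested probe sets. All 4 replicate 1 arrays were below all 4 replicate 2 arrays for 13 members, or 39.4%, beside 11.6% of all tested probe sets. These were psaA, psaB, psbC, psbD, psbI, psbK, psbT, petD, petG, atpF, atpH, atpI and rbcL. The separation was not particular to the members. Of the 36 other plastid genes described below, 12 (33.3%) were apart with replicate 2 higher, and the median of that list was 0.78. For petA and psbJ all 4 replicate 1 arrays were above, beside 1.95%. Within each of the 4 groups, 15 members were higher on replicate 2, beside 24.6% of all tested probe sets, and 5 lower (petA, psbJ, psbF, psbE and petB), beside 7.15%. The differences were 5.07 ± 0.93 for petG, 3.21 ± 0.84 for psaA and 2.86 ± 0.45 for atpH, and at the other end -1.16 ± 0.32 for petA and -1.12 ± 0.32 for psbJ (log2 ± SE). With dim signals raised to the 40th percentile of the array, the value of petG was 3.88. The smallest adjusted p in limma, that of atpH, was 0.136, and the corresponding unadjusted p was 0.000424. The member median depended on the scaling: after each array was centred on its median it was -0.000801, where that of all tested probe sets was -0.26.

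Some neighbouring genes of the plastid genome had differences between the replicate numbers of the same sign, and others did not; likeness between neighbours was not tested. In the run petA, psbJ, psbL, psbF, psbE all 5 were below 0, at -1.16, -1.12, -0.40, -0.66 and -0.82; the last 4 are known as 1 operon. In the operon atpI, atpH, atpF, atpA all 4 were above 0, at 2.51, 2.86, 2.23 and 1.18. The neighbours psbK and psbI had 1.96 and 1.26, and psbD, psbC and psbZ had 1.80, 1.68 and 0.42. The operon of atpB and atpE stayed near 0 (-0.03 and -0.24). Genes of 1 operon did not always go together: in the psbB operon, psbB, psbT and petD had 1.46, 1.14 and 2.08, psbH had 0.20, and petB, next to petD, had -0.36. For psaA the difference was 3.21 and for its operon neighbour psaB 0.62. The consecutive genes petL, petG and psaJ had 0.60, 5.07 and -0.33, and petN, psbM and psbD had 1.66, -0.24 and 1.80. Genes that share a transcript are not independent of each other.

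**Figure D4:**
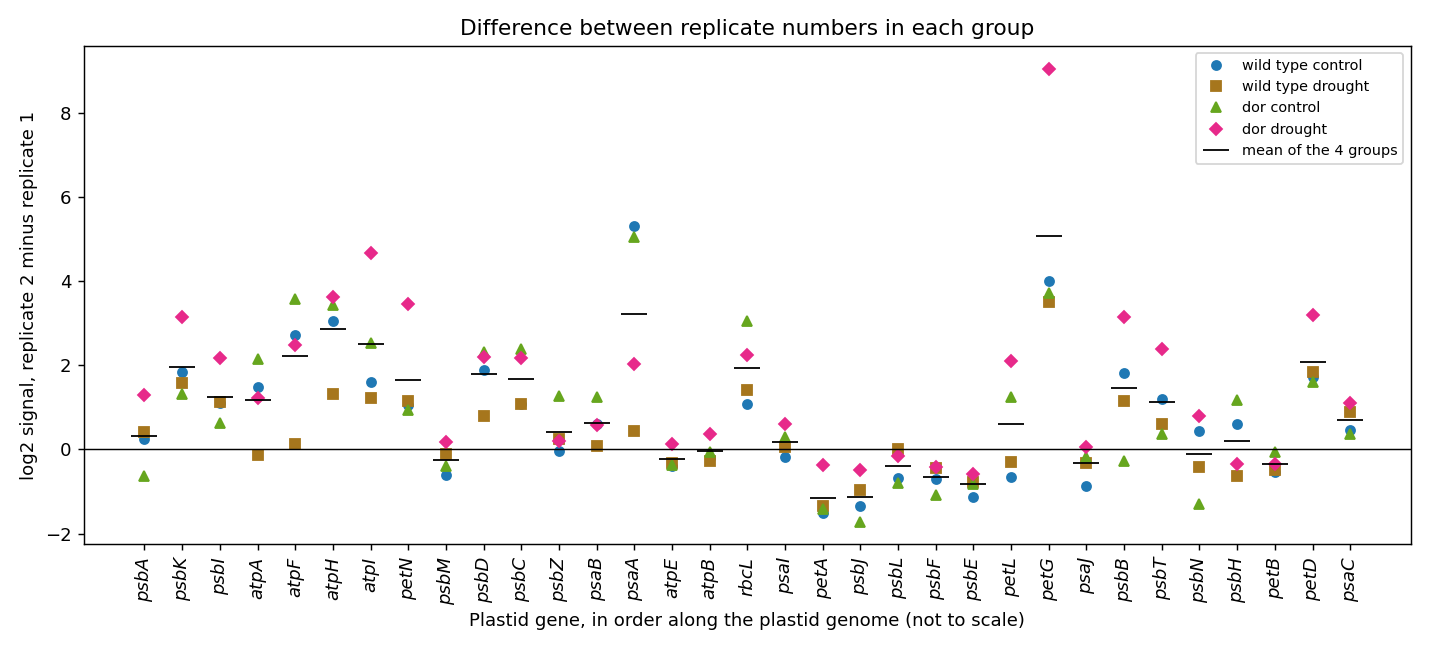
Difference of the log2 signal, replicate 2 minus replicate 1, for the 33 plastid genes in their order along the plastid genome (not to scale), with 1 point for each group and a bar at the mean of the 4. The bars from petA to psbE lie below 0 and those from atpA to atpI above it, with psbL at 0.02 and atpA at -0.14 in wild type drought on the other side, and petG in the dor drought group is the highest point at 9.05. That point rests on the dim petG signal of 2.3 on replicate 1.

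Drought differences along the operons, none of which passed the test, are given side by side. In the psbE operon the median was 0.06 for wild type and -0.53 for dor, and its 4 genes ran between -0.59 and -0.43 in dor. Under drought its 4 genes were lower in dor than in wild type within both replicate numbers, with a median of -0.74. For psbD, psbC and psbZ the medians were 0.20 (wild type) and -0.83 (dor). The pair psbK and psbI had -0.07 and -0.12 in wild type, and -1.69 and -1.23 in dor, where it was -2.61 and -1.99 within replicate 1 and -0.78 and -0.46 within replicate 2.

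Set beside other gene lists, the members lay between the mitochondrial and the nuclear photosynthesis lists in their median drought difference. The other 36 plastid genes with 1 probe set, 10 of the NADH dehydrogenase-like complex and 26 of gene expression or other roles, had median drought differences of -0.06 (wild type) and -1.01 (dor), and in dor 34 of 36 were below 0 and 18 had groups that did not overlap, all lower, beside 22.9% of all tested probe sets. The mitochondrial list had 23 probe sets for 16 genes, so some genes counted more than once. Its 17 tested probe sets had medians of 0.88 in wild type and 0.34 in dor. The annotation named exactly 1 gene for 13513 of the 22810 probe sets, and nuclear genes without such a probe set are missing below. The nuclear photosynthesis list, set by symbol, had 10 genes with such a probe set. These were ATPC1, ATPC2, LHCB4.1, LHCB4.2, LHCB4.3, PSAE-1, PSAN, PSB27, PSBW and PSBY, none of them of cytochrome b6f or Rubisco. The median of this list was -0.70 in wild type and -1.72 in dor, where all 10 were below 0. Of these 10, 0 were called in either genotype and 2 over both genotypes, both lower under drought, beside 5.81% of all tested probe sets called: PSB27, a photosystem II assembly factor, at -1.67 ± 0.40 with an adjusted p of 0.0463, and LHCB4.3, an antenna protein, at -3.10 ± 0.70 with an adjusted p of 0.0369 (limma). That count ran from 0 to 5 over 19 alternatives and was 0 in 9 of them. It was 0 with same-numbered arrays of a condition taken as a random block, and without an intensity trend in limma. It was also 0 with the labels' wording on RNA extraction as a block. The others of the 9 left out arrays: replicate 1 of each group in turn, both replicate 1 controls, or dor drought replicate 2. The medians are descriptions, and no test of a difference between the lists was made.

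On dor drought replicate 1 the median signal of the nuclear photosynthesis genes was 4305, beside 8240.0 on dor drought replicate 2 and 13869 to 30747.5 on the other 6 arrays. It was the lowest of the 8 arrays for 9 of the 10 nuclear genes, for 27 of the 36 other plastid genes and for 19 of the 33 members, but for 2 of the 17 mitochondrial probe sets. The control arrays of replicate 1 were the highest for the nuclear median, at 29361.5 and 30747.5, whereas the member median was 4562 and 4915 there. Of the list for nuclear control of plastid transcription and RNA, 1 gene had a named probe set, HCF101. It is known for the assembly of iron-sulphur clusters of photosystem I, not for a role in RNA, so no value stands here for that list. The drought difference of HCF101 was -0.85 in wild type and -2.61 in dor, with an adjusted p of 0.708 and 0.167 in limma.

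**Figure D5:**
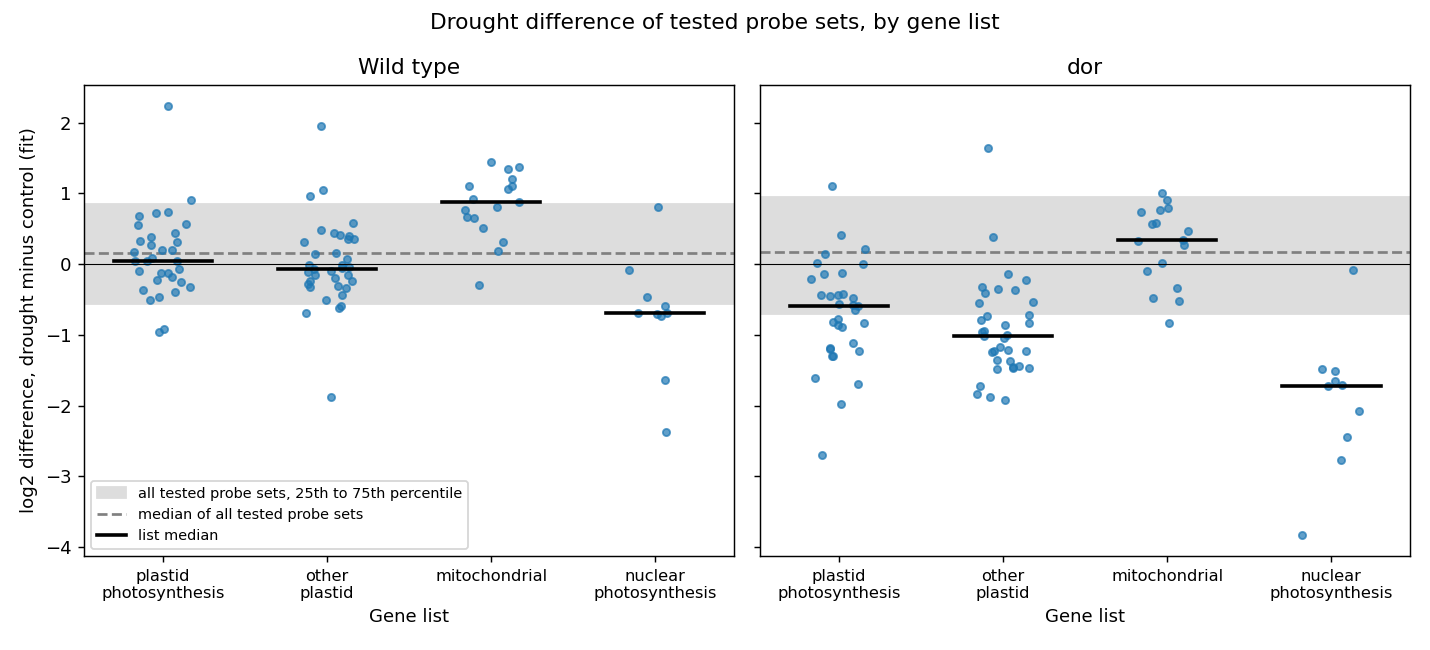
Drought minus control difference (log2) of each tested probe set in 4 gene lists, for wild type (left) and dor (right), with the list median as a bar, the median of all 15523 tested probe sets as a dashed line and their 25th to 75th percentile in grey. The plastid photosynthesis genes have medians of 0.04 and -0.59, between those of the mitochondrial and the nuclear photosynthesis lists.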

How the data were processed

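The authors deposited 1 linear intensity signal per probe set and array, made with GCOS and MAS5 per the submitters' processing notes, with no versions given. On each array the mean after trimming 2% at each end lay at 500, and detection calls were not analysed here. RNA of 5 µg was labelled as biotinylated cRNA; the labels name the RNAplant reagent for replicate 1 of dor and replicate 2 of wild type only. Signals were floored at 1 and log2 was taken. Tested were the 15523 probe sets that reached the 40th percentile of the array on at least 2 arrays; the 64 control probe sets were dropped. Genes were named through the platform annotation and a RefSeq gene table, in which 13436 of 13513 probe sets with 1 gene matched and 503 had several genes. Mitochondrial genes were matched by symbol. The files name no genome build, so no coordinates are given. R 4.3.3 with limma 3.58.1 (lmFit, eBayes with an intensity trend) fitted the means of the 4 groups, with 4 residual degrees of freedom, or condition and genotype without interaction, with 5; p-values were adjusted by Benjamini-Hochberg. With 2 arrays a group the number of arrays limits the precision. The script was tested on simulated data with independent noise on each array. That test did not cover the correlation of same-numbered arrays given below. In each complex the 4 members with the highest mean log2 signal are given on every array, others as stated. Members and lists were chosen with earlier results of these data known. A total of 0 columns were left unmapped.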

Additional observations from a re-analysis of the deposited data

How the results depend on the processing

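The count of members called was 0 in each of the 8 comparisons under every alternative run, 19 alternatives for 7 comparisons and 17 for the replicate numbers. The smallest adjusted p among members under any of them was 0.0612, for petG between replicate numbers with dim signals raised, an alternative chosen after seeing the data. Counts over all tested probe sets moved more, from 0 to 6 for drought in wild type, 0 to 167 for drought in dor, 0 to 22 for genotype under drought, 12 to 1682 for drought over both genotypes and 0 to 20 for the replicate numbers. The member median for drought in wild type was 0.20 after quantile normalization, -0.12 after centring on the array median and -0.18 without both control arrays labelled 1. Without those 2 arrays it was -1.20 for drought in dor and -0.69 over both genotypes. Over all tested probe sets these medians were 0.05, -0.002 and -0.13 for wild type, -0.11 for dor and -0.11 over both genotypes. Between replicate numbers the member median was -0.000801 after median centring, beside -0.26 over all tested probe sets. Leaving out 1 array at a time gave ranges of -0.18 to 0.43 for drought in wild type, -1.20 to -0.055 in dor, -0.37 to -0.06 over both genotypes, -0.12 to 0.84 for genotype under control watering, -0.84 to 0.26 under drought, -0.28 to 0.24 over both conditions, -1.52 to -0.12 for the difference of the responses and 0.57 to 0.81 for the replicate numbers. Of these, -0.055, 0.26 and -0.12 for the difference are without dor drought replicate 1. There the medians of all tested probe sets were 0.30, 0.12 and 0.10. The causes were not tested. A fit that took the replicate number as a block also called 0 members in each comparison, and the smallest adjusted p was 0.0903, for psaI under drought over both genotypes. The numbers are not known to pair the samples: deviations of same-numbered arrays correlated at 0.594 between the control groups and 0.402 between the drought groups, and between -0.0358 and 0.0533 for the other pairs of groups. Dimness limits petG and atpI on dor drought replicate 1.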
